A study of Glycine max with 8 samples.

Results

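The basic leucine zipper (bZIP) transcription factors of soybean (Glycine max) were followed through early seed development. Members were taken from the probe-to-gene annotation of the Affymetrix soybean array: every probe set listed for a single gene whose symbol begins with bZIP and a digit. This gave 89 probe sets for 58 genes, among 8677 probe sets listed with 1 gene and 37641 soybean probe sets in all. Of the 58 genes, 54 had a probe set above background, and the brightest probe set stood for each gene. The 4 genes below it, BZIP35, BZIP42, BZIP47 and BZIP94, were not tested. Symbols of 55 genes matched RefSeq, and BZIP54, BZIP83 and BZIP95 keep the platform's name.

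All 8 samples were of the cultivar Tamahomare, with no treatment or second genotype named in the labels, and each of 4 stages had 2 arrays. The stages were pods at the start of elongation (pod elongation), pods with seeds 2 mm long (bean 2 mm), seeds 5 mm long (bean 5 mm) and green seeds at full size (fully grown). Pod tissue was therefore in the samples of the earlier pair of stages only, and tissue and stage cannot be told apart between bean 2 mm and bean 5 mm. No label ties replicates to separate plants, so the spread behind each p-value may be a technical one. The design text asks which transcripts change between successive stages, and 3 steps were compared, each stage against the one before it. Neighbouring steps share the arrays of the stage between them.

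A bZIP protein binds DNA through a basic region and pairs with another bZIP protein through a leucine zipper, so the members present in a cell set which pairs can form. Many plant bZIP proteins bind sites with an ACGT core, among them the abscisic acid response element. In Arabidopsis seeds, ABI5 acts in the response to abscisic acid, and bZIP10, bZIP25 and bZIP53 activate storage protein genes together with ABI3. The soybean numbers do not follow those of Arabidopsis, so a shared number is no sign of a shared role.

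Values are the deposited signals after each array was scaled to an equal median, so a change is relative to the typical transcript of the array. Control-scaled values, scaled instead to the bacterial and phage hybridization controls, unscaled values, those of the deposited table itself, and quantile-normalized values are given where they turn a direction or end a call described here. Fold changes are on the log2(scaled signal + 16) scale, where changes of dim transcripts look smaller than they are. In bulk tissue, fewer cells of a type and less RNA per cell cannot be told apart. The 2 arrays of a stage had a Pearson correlation of 0.968 to 0.991 over tested probe sets, a description only. For the members the log2 difference between replicates, without its sign, had a median of 0.10 for pod elongation, 0.14 for either bean stage and 0.25 for fully grown seeds. The summed signal of 34 maturing-embryo genes (storage proteins, seed maturation proteins) was 2625 to 2669, 3184 to 3330, 5715 to 9528 and 255724 to 262606 at the 4 stages in order, with 7, 15, 23 and 34 of them above background on both arrays. That of 6 green-tissue genes was 11900 to 11907, 2458 to 4646, 4703 to 5556 and 4590 to 5269, and that of 3 seed coat genes 1049 to 1249, 6828 to 8277, 9057 to 9948 and 8469 to 8498. The last of these sums rested on HPS, at 7982 and 7619 in fully grown seeds, where ANR1 was at 11.7 and 2.40 and SCB1 at 475 and 877. At bean 5 mm ANR1 read 2335 and 2211, SCB1 5220 and 5644, and HPS 1501 and 2093. In the first step HPS went against the sum, from 140 and 165 at pod elongation to 7.73 and 5.65 at bean 2 mm. Most of the embryo sum at pod elongation and bean 2 mm was a single gene, PM37, with means of 2236 and 2273. The part of these tissues in the bZIP results was not tested.

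With arrays scaled to equal medians, most bZIP transcripts were highest either when seeds were 2 mm long or when they were fully grown. The highest stage mean was at pod elongation for 8 of 54 members (14.8%), at bean 2 mm for 19 (35.2%), at bean 5 mm for 1 (1.85%) and in fully grown seeds for 26 (48.1%). Over all 33625 tested probe sets the shares for the stages in order were 23.3%, 22.3%, 14% and 40.4%. Over the 5812 tested genes with a single-gene probe set they were 24.7%, 20.8%, 8.71% and 45.8%, so the members' fully grown share was near that background. Peak stages under other scalings are not given here. Control-scaled, 20 of the 22 members called higher in fully grown seeds than at bean 5 mm had a negative change in that step. BZIP122 was the single member with its highest mean at bean 5 mm, and it did not differ among the stages by the F-test. That test, limma's over all 4 stages, called 41 of 54 members (75.9%), against 76.7% of all tested probe sets and 85.9% of those genes. It called 4 of the 8 members highest at pod elongation, 15 of the 19 at bean 2 mm and 22 of the 26 in fully grown seeds. The median member had a highest stage mean 1.93 times its lowest, against 1.92 times for the median probe set and 2.19 times for the median single-gene set. In the deposited signal, before scaling, the bean 2 mm and fully grown arrays also stood apart in the bacterial and phage hybridization controls. These were at 838 to 1032 against 462 to 482 at the other stages. The deposited array medians were 138 and 111 at bean 2 mm, 29.3 and 24.1 in fully grown seeds and 63.1 to 73.1 elsewhere. Control-scaled, the median of all tested probe sets moved by 0.026 at bean 2 mm against pod elongation. The signal at the 3′ end of actin over that at its 5′ end grows as RNA degrades. It was 2.73 to 4.80 on the bean 2 mm and fully grown arrays and 2.05 to 2.22 on the others. The part of either in the peak stages was not tested.

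**Figure D1:**
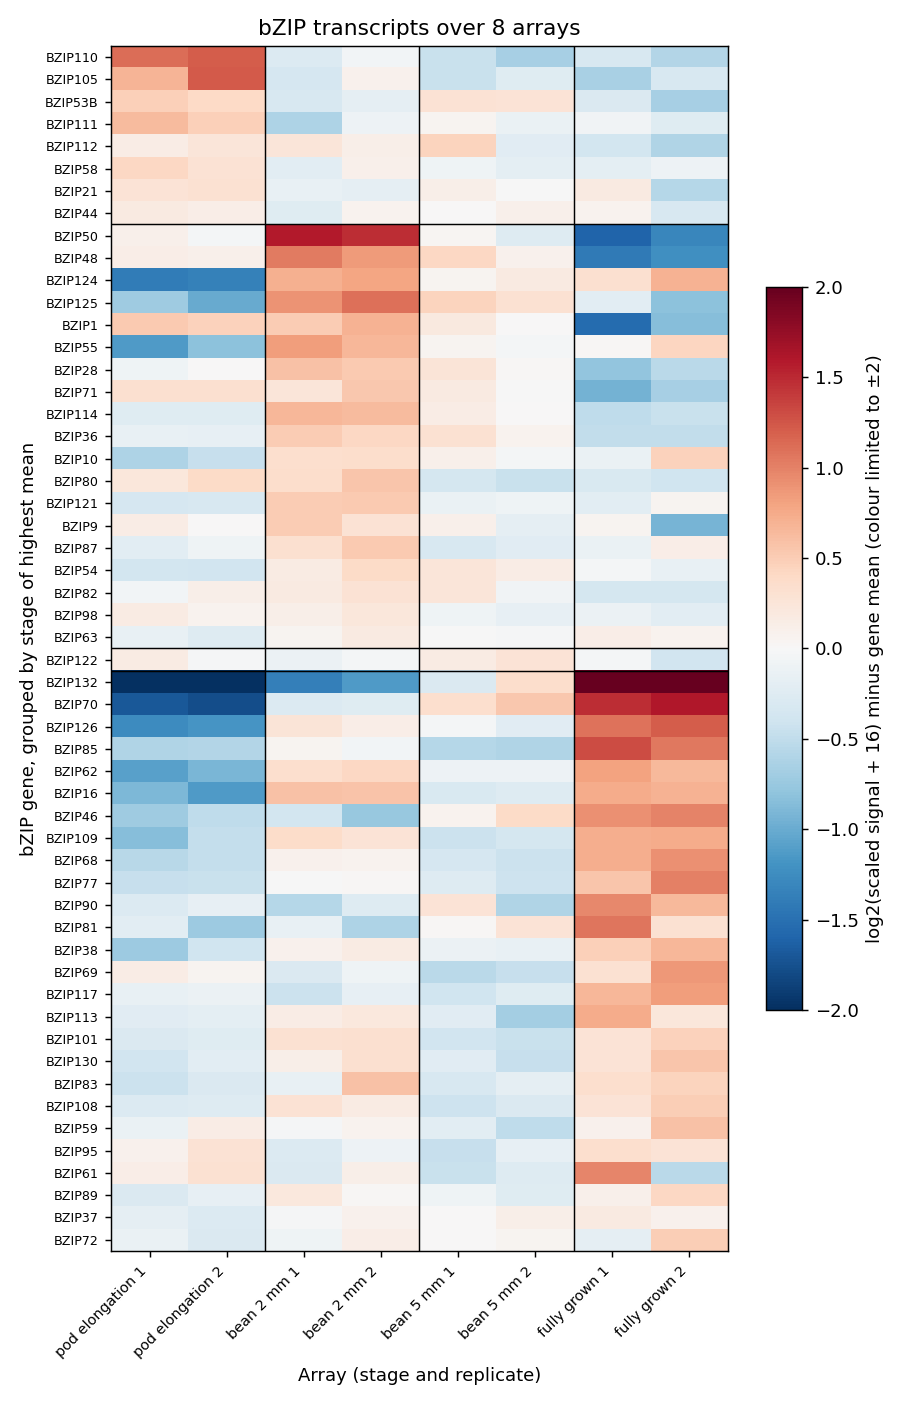
Each row is one of the 54 bZIP genes above background and each column 1 of the 8 arrays, with stages running left to right; colour is log2(scaled signal + 16) minus the gene's mean over the arrays, limited to ±2, and black lines group genes by the stage of their highest mean. On this equal-median scale most rows are reddest at bean 2 mm (19 genes) or in fully grown seeds (26 genes), and 1 row, BZIP122, at bean 5 mm.

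Across the 3 steps, a sequence of calls found in 9 members was higher at bean 2 mm, lower at bean 5 mm and higher again in fully grown seeds. These were BZIP16, BZIP62, BZIP68, BZIP85, BZIP101, BZIP108, BZIP109, BZIP124 and BZIP130, 16.7% of members against 1.95% of all tested probe sets and 2.56% of genes with a single-gene probe set. Control-scaled, all 9 had a negative change in the last step. Unscaled, all but BZIP85 (0.67) had one too, and quantile-normalized BZIP124 had -0.11. Many second-step lower calls of the family were lost when 1 array of a bean stage was left out, as given below. BZIP108 and BZIP109 share the main number of their identifiers and may not be separate signals. The deposited control signals named above also went up, down and up, but the deposited array medians were lowest in fully grown seeds. The part of either in these calls was not tested. BZIP70 and BZIP132 were called higher in all 3 steps, and BZIP53B had lower, higher and lower, the reverse of the sequence of the 9. No other member had either of these sequences, and their shares over all tested probe sets are not given here. A further 12 members had no call in any step (limma, Benjamini-Hochberg adjusted p of 0.05 or above): BZIP9, BZIP21, BZIP37, BZIP44, BZIP58, BZIP61, BZIP72, BZIP81, BZIP82, BZIP89, BZIP98 and BZIP112. They made up 22.2% of members, against 24.9% of probe sets and 15.9% of genes. A missing call does not show that a level stayed the same. BZIP61, for example, whose highest stage mean rested on 1 array, read 73.5 and 15.3 on the fully grown arrays, a log2 difference of 1.52 and the widest between replicates of any member.

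BZIP132 had the widest profile of the family. In transgenic Arabidopsis this gene altered responses to abscisic acid and salt. Its scaled signal was 12.0 and 11.0 at pod elongation, 47.1 and 57.9 at bean 2 mm, 117 and 192 in beans of 5 mm, and 2025 and 2434 in fully grown seeds. Each stage lay above the one before it with no overlap, and the fully grown mean of 2230 ± 289 (SD, n = 2, as for all stage means) stood against 154 ± 52.8 at bean 5 mm. The log2 change was 1.31 ± 0.21 (SE) at bean 2 mm against pod elongation (2.49-fold, limma adjusted p = 0.000988), 1.28 at bean 5 mm against bean 2 mm (2.43-fold, adjusted p = 0.00506) and 3.75 in fully grown seeds against bean 5 mm (13.5-fold, adjusted p = 2.37e-06). It was the only member called higher in all 3 steps under each of the 4 scalings tried, and the last rise was 2.50 unscaled, 3.19 quantile-normalized and 1.48 control-scaled. The summed signal of maturing-embryo genes rose at each of these steps too, and its part in the rise of BZIP132 was not tested. Of those 34 genes 7 were called higher and 1 lower in the first step, 14 and 0 in the second, and 33 and 1 in the last.

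Other members with a known part in stress or abscisic acid responses had other profiles. BZIP1, also named AREB1 and a binder of the abscisic acid response element, read 55.5 and 52.3 at pod elongation, 54.3 and 63.9 at bean 2 mm, 40.7 and 33.6 in beans of 5 mm, and 1.02 and 11.6 in fully grown seeds. It was not above background on either fully grown array, and in that stage it was at least 1.96-fold lower than at bean 5 mm (fitted log2 change -1.29 ± 0.23 SE, limma adjusted p = 0.00143). The neighbouring earlier stages were not called different. A second BZIP1 probe set also had a negative change in that step, -0.41 on the log2 scale, without a call.

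BZIP62, which lowered abscisic acid sensitivity in transgenic Arabidopsis and is described here after its values were seen, read 125 and 144, 365 and 388, 265 and 266, and 509 and 459 at the 4 stages in order. The stages did not overlap, and all 3 steps were called, with log2 changes of 1.38 ± 0.12 (SE, limma adjusted p = 3.04e-05), -0.48 (adjusted p = 0.0258) and 0.83 (adjusted p = 0.00045). The last of these turned to -0.37 unscaled and to -1.36 control-scaled. The dimmest of the 3 BZIP62 probe sets had 0.12 without a call in the second step (adjusted p = 0.808). BZIP44, studied alongside it in transgenic plants, stayed between 2.08 and 9.63 on all arrays and was above background on 5 of 8, so its profile could not be read at this signal.

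BZIP110, known for a part in salt tolerance, was highest in the young pod. Its signal was 254 and 273 at pod elongation, 87.6 and 104 at bean 2 mm, 75.8 and 63.1 in beans of 5 mm, and 83.9 and 67.2 in fully grown seeds. Both pod elongation arrays lay far above the rest. At bean 2 mm it was 2.50-fold lower than at pod elongation (log2 -1.32 ± 0.15 SE, limma adjusted p = 0.000183), and it was the only member called lower in that step under all 4 scalings. Each of its 3 probe sets was called lower in that step, by 1.12 to 1.44 on the log2 scale.

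BZIP36, also named SOYSTF1A and related to the light-response regulator HY5, is given here after its values were seen. It read 46.0 and 45.3, 81.1 and 74.9, 68.3 and 55.5, and 32.8 and 32.4 at the 4 stages in order, highest at bean 2 mm. It was called higher at bean 2 mm than at pod elongation (0.61 ± 0.15 SE on the log2 scale, limma adjusted p = 0.00885) and lower in fully grown seeds than at bean 5 mm (-0.68, adjusted p = 0.00453), both under all 4 scalings.

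When seeds had reached 2 mm, more members had risen than fallen relative to the typical transcript. Of 54 members, 26 were called higher than at pod elongation (48.1%, against 26.5% of all tested probe sets) and 4 lower (7.41%, against 20.4%), with limma and Benjamini-Hochberg adjustment over all 33625 probe sets. Among the 5812 genes with a single-gene probe set the shares were 32% higher and 23.5% lower. The median member changed by 0.36 on the log2 scale and the median probe set by 0.09. Calls of at least 2-fold numbered 9 higher and 2 lower (20.4% of members, against 17.4% of probe sets and 22.2% of genes). The arrays of the 2 stages did not overlap for 45 members (83.3%, against 80.2% of probe sets and 84.6% of genes). Of the 26 higher members 22 were called so under all 4 scalings, while of the 4 lower ones this held only for BZIP110. Over all tested probe sets 79.1% of higher and 56.3% of lower calls in this step held under all 4 scalings. Of called members 86.7% were higher with equal medians, 83.3% quantile-normalized, 97.6% unscaled and 76.7% control-scaled. All tested probe sets gave 8905 higher and 6847 lower calls with equal medians, and 9378 and 7072 quantile-normalized. They gave 20475 and 3945 unscaled, and 7654 and 8387 control-scaled. Unscaled, their median moved by 0.67. Without fully grown replicate 1, or without replicate 2, 7 members were called lower. The deposited hybridization controls given above were higher at bean 2 mm too, as were the deposited array medians and the actin ratio. Their part in these counts was not tested.

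The largest rise of this step was that of BZIP124, which read 280 and 291 at pod elongation, 1255 and 1334 at bean 2 mm, 793 and 872 in beans of 5 mm, and 960 and 1243 in fully grown seeds. Its bean 2 mm mean was 1295 ± 56.2, against 285 ± 7.62 at pod elongation, a 4.35-fold rise (log2 2.12 ± 0.14 SE, limma adjusted p = 6.5e-06). Both later stages stayed above the pod elongation level. The signal was 1.55-fold lower at bean 5 mm than at bean 2 mm (adjusted p = 0.017), and the call of 0.39 higher in fully grown seeds (adjusted p = 0.0425) turned to -0.11 quantile-normalized, -0.84 unscaled and -1.88 control-scaled.

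BZIP125 read 145 and 115, 477 and 556, 345 and 312, and 214 and 134 at the 4 stages in order. It rose 3.65-fold at bean 2 mm (log2 1.87 ± 0.20 SE, limma adjusted p = 0.000126) and was called lower in fully grown seeds than at bean 5 mm (-0.89, adjusted p = 0.00585). Its fully grown arrays overlapped with neither bean stage.

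BZIP55 read 163 and 208, 684 and 605, 393 and 366, and 385 and 516, with bean 2 mm above every other stage. It rose 3.30-fold at bean 2 mm (log2 1.72 ± 0.17 SE, limma adjusted p = 6.66e-05). Its second probe set was also called higher in this step, by 0.84.

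BZIP16 read 104 and 85.3, 316 and 316, 164 and 170, and 355 and 343, so that it was high at bean 2 mm and in fully grown seeds. It rose 3.01-fold in the first step (log2 1.59 ± 0.12 SE, limma adjusted p = 1.68e-05) and was 1.81-fold lower at bean 5 mm than at bean 2 mm (-0.86, adjusted p = 0.00304). In fully grown seeds it was called 1.0 higher than at bean 5 mm (adjusted p = 0.000185), a change of -0.18 unscaled and -1.14 control-scaled.

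BZIP50 had a narrow peak at bean 2 mm. It read 39.6 and 34.2 at pod elongation, 140 and 128 at bean 2 mm, 37.4 and 27.4 in beans of 5 mm, and 1.12 and 5.09 in fully grown seeds, where it was not above background. Its log2 changes were 1.50 ± 0.18 (SE, 2.83-fold higher, limma adjusted p = 0.000208), -1.64 (3.11-fold lower, adjusted p = 0.000904) and -1.34 (at least 1.69-fold lower, adjusted p = 0.000295). A second BZIP50 probe set had the same 3 calls, with changes of 1.46, -1.32 and -0.80, and all 3 calls held under the 4 scalings.

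**Figure D2:**
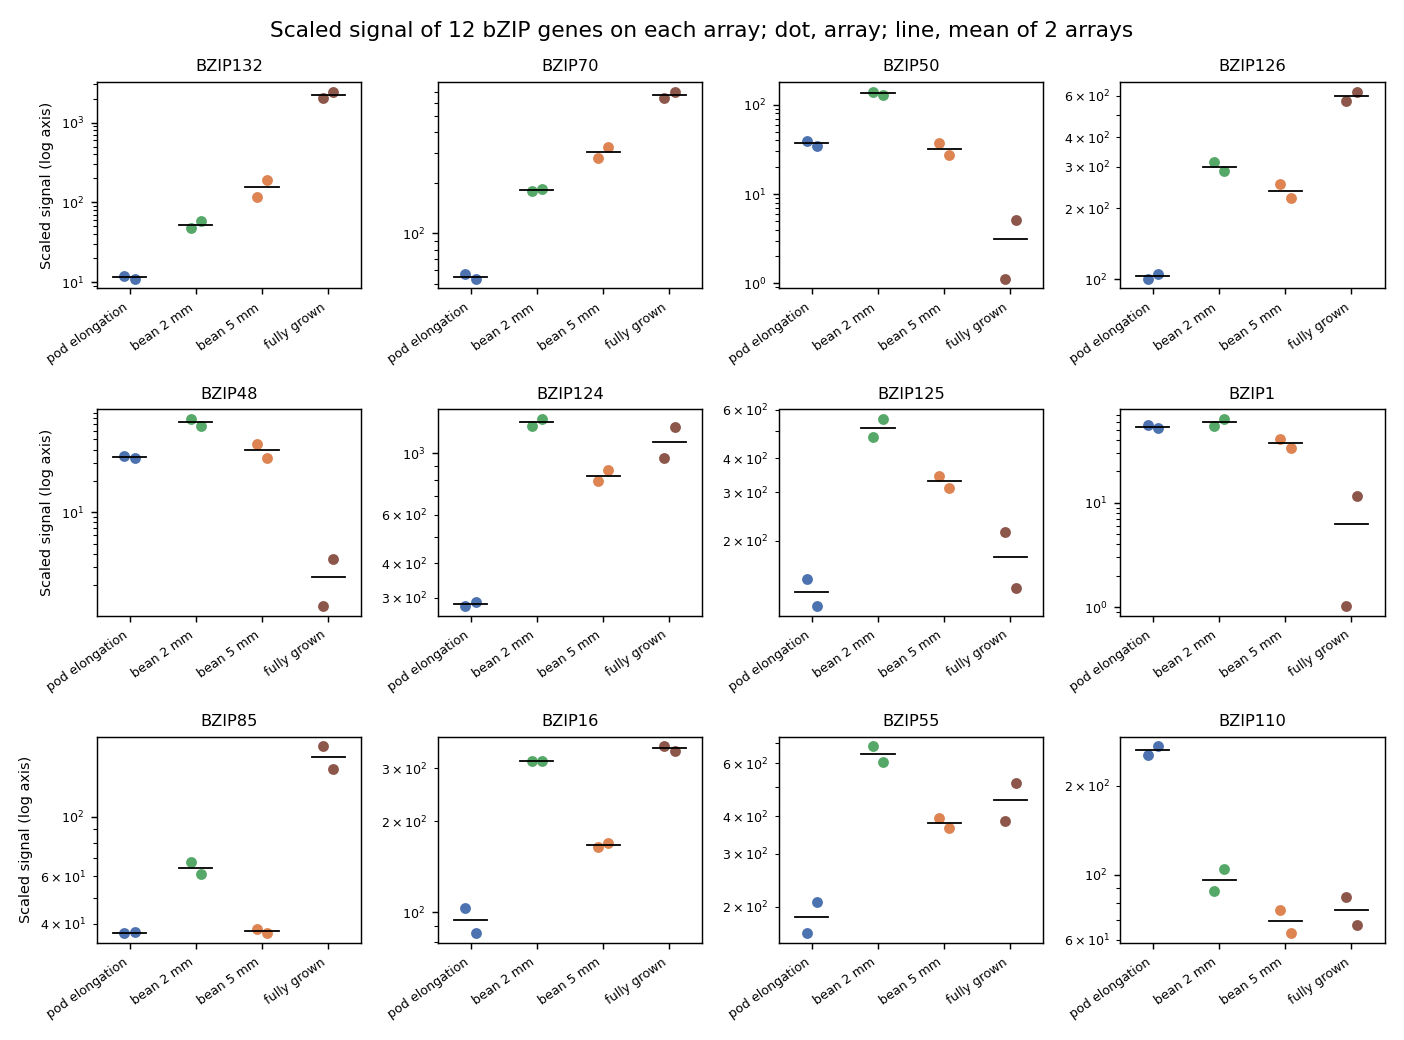
Scaled signal (log axis, its range set per panel) on each of the 8 arrays (dots) with the mean of the 2 arrays (lines) for 12 bZIP genes, stages running from pod elongation to fully grown. BZIP132 climbs at every stage to 2025 and 2434 in fully grown seeds, BZIP50 peaks at 140 and 128 at bean 2 mm, and BZIP110 is highest at pod elongation.

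The members called lower at bean 2 mm than at pod elongation were BZIP110, described above, BZIP105, BZIP111 and BZIP53B. BZIP105 read 90.5 and 140, 37.0 and 54.8, 33.1 and 40.1, and 26.6 and 37.1 at the 4 stages in order, 2.11-fold lower at bean 2 mm (log2 -1.07 ± 0.23 SE, limma adjusted p = 0.00495). The change was -0.80 with an adjusted p of 0.052 without pod elongation replicate 2, the brighter array. Of its 3 probe sets, 2 were called lower.

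BZIP111 read 60.8 and 53.1, 16.2 and 30.3, 35.6 and 29.5, and 31.6 and 25.9, 1.89-fold lower at bean 2 mm (log2 -0.92 ± 0.20 SE, limma adjusted p = 0.00545). Its second probe set was called lower as well, by 1.17. The dimmest of the 3 probe sets of BZIP110, which was not the one counted, shares the main number of its identifier with the sets of BZIP111, and these may not be separate signals. Unscaled, BZIP105 and BZIP111 were not called (adjusted p = 0.0504 and 0.0601).

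BZIP53B, with a bright probe set, read 1114 and 1059, 632 and 704, 980 and 969, and 646 and 496. It was high at pod elongation and bean 5 mm and low at the other stages. The changes were -0.69 ± 0.14 (SE, limma adjusted p = 0.00359), 0.54 (adjusted p = 0.0305) and -0.77 (adjusted p = 0.0017), of which the unscaled values turned the first to 0.06 and the second to -0.40. Control-scaled the second was 0.39 and no longer called (adjusted p = 0.136). Its bean 5 mm call did not survive leaving out any one array of the stages before fully grown. Its probe set can match more than 1 transcript.

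The members that changed between bean 2 mm and bean 5 mm were mostly lower. Of 54 members, 4 were called higher at bean 5 mm (7.41%, against 9.26% of all tested probe sets) and 16 lower (29.6%, against 9.4%), by limma with Benjamini-Hochberg adjustment. Among genes with a single-gene probe set 8.76% were higher and 11% lower. The median member changed by -0.31 on the log2 scale and the median probe set by -0.05. Only BZIP132 among the higher and BZIP50 among the lower changed at least 2-fold, 3.7% of members against 4.46% of probe sets and 5.8% of genes. The arrays did not overlap for 41 members (75.9%, against 69.4% of probe sets and 71.1% of genes). The 16 lower calls held under all 4 scalings, but leaving out replicate 1 of bean 2 mm or of bean 5 mm left 6, and leaving out replicate 2 of either left 3. Of the higher calls 2 were left without replicate 1 or 2 of pod elongation or replicate 1 of bean 5 mm, and 1 without replicate 2 of bean 2 mm or of bean 5 mm. Without either fully grown array 24 members were called lower. Over all tested probe sets, 95.3% of lower calls in this step held under all 4 scalings too. Of called members 20% were higher with equal medians, 20% quantile-normalized, 2.22% unscaled and 11.5% control-scaled. All tested probe sets gave 3114 higher and 3162 lower calls with equal medians, and 3502 and 3443 quantile-normalized. They gave 734 and 23746 unscaled, and 2734 and 6206 control-scaled. Unscaled, the median of all tested probe sets moved by -0.76. MAS5, the program that makes such signals, is named for the bean 5 mm and fully grown samples only, and this labelled difference and the stage cannot be told apart in this step.

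The members called higher at bean 5 mm were BZIP132, BZIP70, BZIP46 and BZIP53B. BZIP70 read 57.1 and 53.3 at pod elongation, 180 and 184 at bean 2 mm, 282 and 328 in beans of 5 mm, and 644 and 700 in fully grown seeds, with no overlap between any stages. The rises were 1.48 ± 0.12 (SE, 2.78-fold, limma adjusted p = 2.46e-05), 0.69 (1.62-fold, adjusted p = 0.00701) and 1.10 (2.15-fold, adjusted p = 0.0001) on the log2 scale, of which the second was -0.20 and the last -0.11 unscaled, and the last -1.12 control-scaled. Its bean 5 mm call was lost without bean 2 mm replicate 2 (adjusted p = 0.0529) or bean 5 mm replicate 2 (adjusted p = 0.078). That probe set can match several transcripts, and of the 3 steps a second BZIP70 probe set was called only in the last, at 1.09 (0.16 unscaled without a call, -0.47 control-scaled).

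BZIP46 was dim, at 5.40 and 8.53, 11.0 and 4.70, 20.5 and 29.4, and 49.5 and 53.3 at the 4 stages in order. Its arrays at bean 5 mm lay above those at bean 2 mm (0.78 ± 0.19 SE on the log2 scale, limma adjusted p = 0.025), and that call was lost unscaled (0.38, adjusted p = 0.115). It was also lost without any one array of the stages before fully grown other than bean 2 mm replicate 1, with adjusted p-values of 0.0507 to 0.182. In fully grown seeds it was called a further 0.73 higher (adjusted p = 0.0119), which turned to -0.12 unscaled and -0.71 control-scaled.

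Among the falls at bean 5 mm, that of BZIP80 started from a level shared with pod elongation. It read 180 and 204, 198 and 231, 115 and 107, and 120 and 111, high at the earlier pair of stages and low at the later pair. At bean 5 mm it was 1.81-fold lower than at bean 2 mm (log2 -0.86 ± 0.13 SE, limma adjusted p = 0.00421). The call was lost with the mean over both of its probe sets (adjusted p = 0.0857). Only the earlier pair of stages held pod tissue, so tissue and stage cannot be told apart in this fall.

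BZIP101 moved up and down instead, at 137 and 143, 215 and 217, 128 and 122, and 209 and 240. At bean 5 mm it was 1.65-fold lower than at bean 2 mm (log2 -0.72 ± 0.12 SE, limma adjusted p = 0.00561), a call lost without bean 2 mm replicate 2 (adjusted p = 0.0503) or bean 5 mm replicate 2 (adjusted p = 0.0598). It was 0.77 higher in fully grown seeds than at bean 5 mm (adjusted p = 0.000714), against -0.36 unscaled and -1.27 control-scaled.

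BZIP55, described above, was 1.67-fold lower at bean 5 mm (log2 -0.74, limma adjusted p = 0.0188). Leaving out any of the 4 arrays concerned ended this call, and its second probe set was at 0.02.

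**Figure D3:**
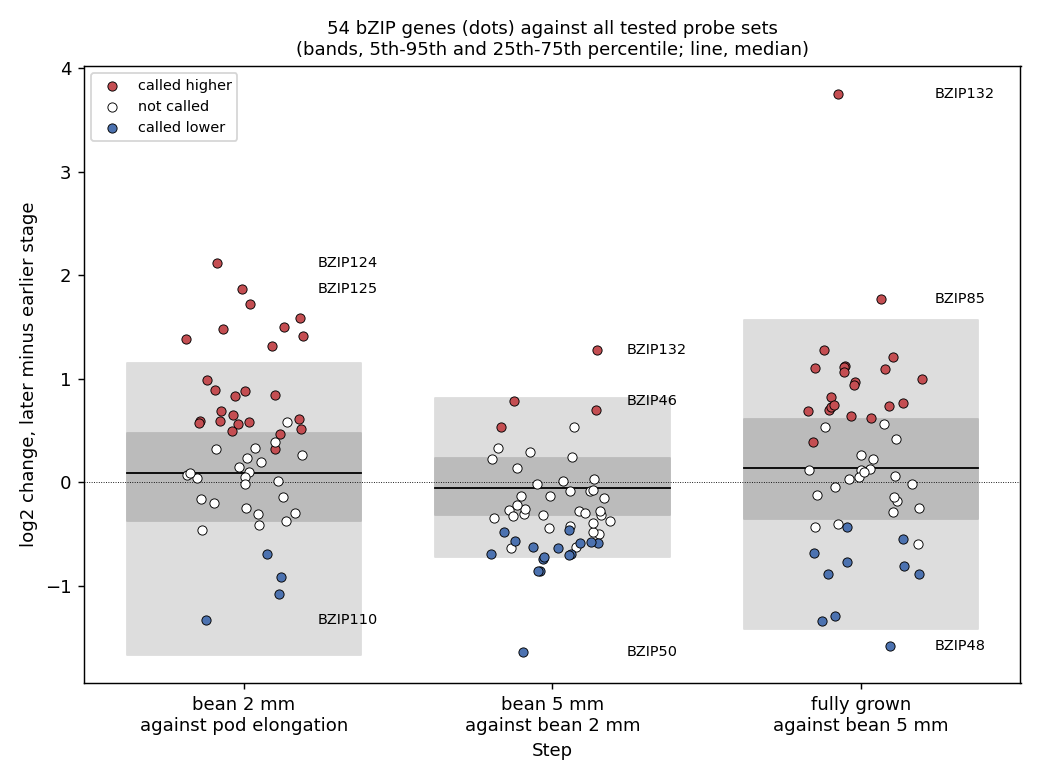
Log2 change (later minus earlier stage) of each of the 54 bZIP genes in the 3 steps as dots, filled red where called higher, blue where called lower and white where not called. Grey bands hold the middle 50% and 90% of all tested probe sets and the line is their median. The members' median is 0.36, -0.31 and 0.18 in the order of the steps, and BZIP132 stands at 3.75 in the last.

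In fully grown seeds, 22 of 54 members were called higher than at bean 5 mm (40.7%, against 31.6% of all tested probe sets) and 10 lower (18.5%, against 20.5%), by limma with Benjamini-Hochberg adjustment. Among genes with a single-gene probe set, 41.7% were higher and 18.6% lower, so the members' shares were near that background. The median member changed by 0.18 on the log2 scale and the median probe set by 0.14. Changes of at least 2-fold were called for 9 members upward and 3 downward (22.2%, against 21.4% of probe sets and 28.9% of genes). Arrays did not overlap for 39 members (72.2%, against 73.6% of probe sets and 78.6% of genes).

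How these rises were counted depended on the scale. The share of called members that were higher was 68.8% with equal medians, 61.3% quantile-normalized, 8.82% unscaled and 2% control-scaled. Over all tested probe sets the calls were 10620 higher and 6899 lower with equal medians, and 8510 and 8284 quantile-normalized. They were 1770 and 19876 unscaled, and 615 and 28387 control-scaled. Of the 22 higher members, 16 had a negative change unscaled, 20 control-scaled and 1 quantile-normalized, and BZIP132 alone was called higher under all of them. The 10 lower members, BZIP1, BZIP28, BZIP36, BZIP48, BZIP50, BZIP53B, BZIP71, BZIP114, BZIP122 and BZIP125, were called lower under all 4 scalings. Over all tested probe sets 99.8% of lower calls and 5.78% of higher calls in this step held under all 4 scalings. A rise in this step is therefore one relative to the typical transcript of the array. The median of all tested probe sets moved by -0.64 unscaled and by -1.36 control-scaled.

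**Figure D4:**
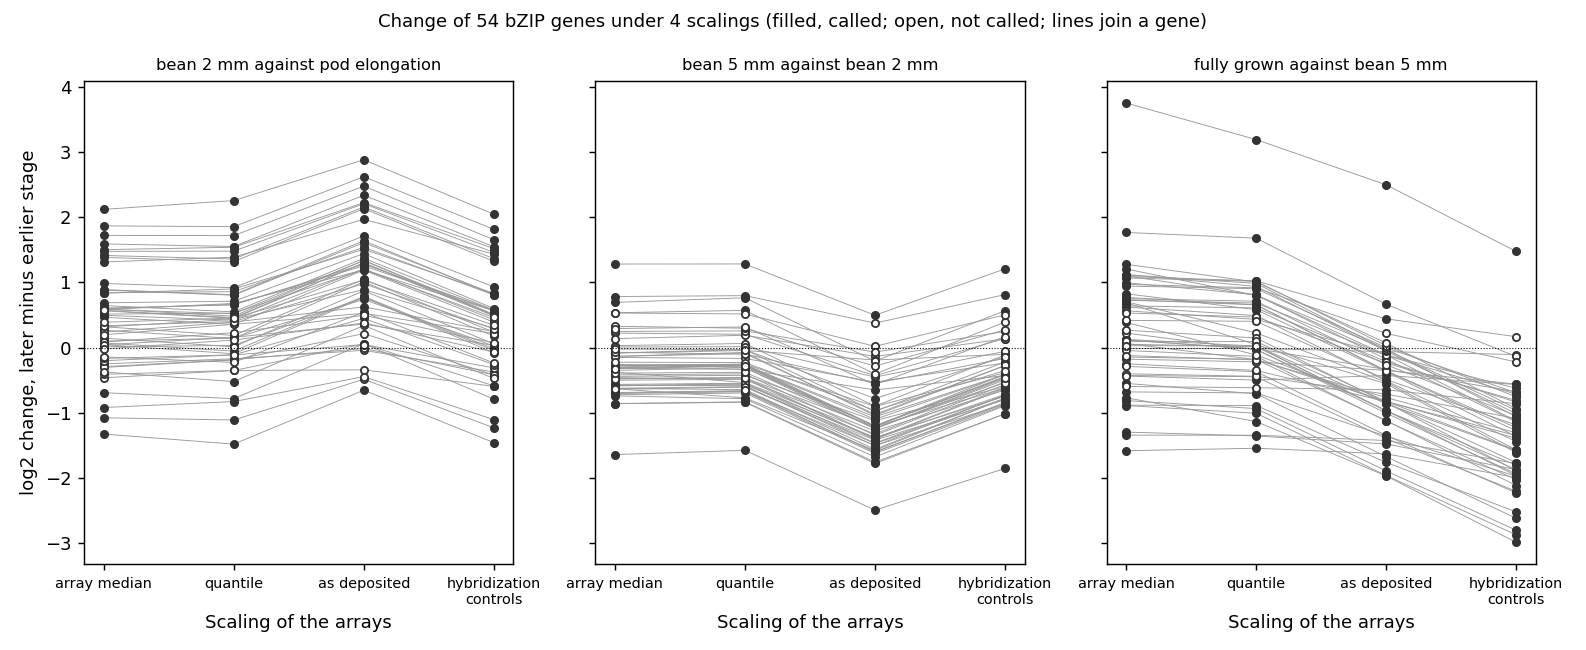
Log2 change (later minus earlier stage) of each of the 54 bZIP genes in the 3 steps under 4 scalings of the arrays, with lines joining a gene, filled dots for called changes and open dots for the rest. In fully grown seeds against bean 5 mm the dots slide below 0 towards the right: 22 higher and 10 lower calls with equal medians become 1 higher and 49 lower control-scaled, the higher one being BZIP132. Over all tested probe sets the control-scaled calls in this step were 615 higher and 28387 lower.

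After BZIP132, the largest rises of the last step were those of BZIP85, BZIP126, BZIP68 and BZIP77. BZIP85 read 36.8 and 37.1, 67.5 and 60.9, 38.1 and 36.8, and 183 and 151 at the 4 stages in order. The fully grown arrays lay above all others, 3.40-fold higher than bean 5 mm (log2 1.77 ± 0.15 SE, limma adjusted p = 1.93e-05), while the change was 0.67 unscaled and -0.13 control-scaled. In the second step it was 1.50-fold lower at bean 5 mm than at bean 2 mm (adjusted p = 0.027).

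BZIP126 read 100 and 105, 314 and 288, 254 and 221, and 572 and 625. It rose 2.66-fold at bean 2 mm (log2 1.41 ± 0.12 SE, limma adjusted p = 3.16e-05) and 2.43-fold in fully grown seeds against bean 5 mm (1.28, adjusted p = 4.23e-05), the second at 0.07 unscaled and -0.93 control-scaled. The step between them was not called (-0.32, adjusted p = 0.0966).

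BZIP68 read 385 and 407, 606 and 598, 448 and 420, and 953 and 1096. In fully grown seeds it was 2.31-fold higher than at bean 5 mm (log2 1.21 ± 0.11 SE, limma adjusted p = 4.11e-05), against -0.02 unscaled and -1.06 control-scaled. Its second, dimmer probe set had no call and a change of -0.45, and with the mean over both sets the call was lost (0.38, adjusted p = 0.0869).

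BZIP77 read 135 and 136, 191 and 194, 158 and 139, and 288 and 403. Both fully grown arrays were highest, although they stood apart from each other. The rise over bean 5 mm was 2.17-fold (log2 1.12 ± 0.16 SE, limma adjusted p = 0.000437), against -0.05 unscaled and -1.01 control-scaled. With equal medians a second BZIP77 probe set differed in sign at bean 2 mm (-0.16 against 0.47) and at bean 5 mm (0.70 against -0.35).

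BZIP59 and BZIP38 were among the members with the brightest probe sets, which does not rank the genes, since probes differ in brightness. BZIP59 read 1313 and 1596, 1419 and 1512, 1250 and 1013, and 1532 and 2174. It was called only in the last step, 1.61-fold higher in fully grown seeds (log2 0.69 ± 0.19 SE, limma adjusted p = 0.0129), which was 0.05 without a call quantile-normalized (adjusted p = 0.84) and turned to -0.55 unscaled and -1.61 control-scaled. BZIP38 read 445 and 562, 794 and 839, 687 and 671, and 1047 and 1190, with calls of 0.69 ± 0.14 (SE, adjusted p = 0.00312) at bean 2 mm and 0.70 (adjusted p = 0.00234) in fully grown seeds, the second at 0.23 without a call quantile-normalized (adjusted p = 0.162), -0.53 unscaled and -1.57 control-scaled. Both probe sets can match several transcripts, and that of BZIP38 shares the main number of its identifier with that of BZIP37. A second BZIP38 probe set was not called at bean 2 mm (0.21, limma adjusted p = 0.401).

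The 5 largest falls without overlap in fully grown seeds were those of BZIP48, BZIP50, BZIP1, BZIP125 and BZIP71. BZIP48 read 34.3 and 33.1, 78.8 and 67.1, 45.4 and 33.0, and 1.25 and 3.53, and so was not above background in fully grown seeds. It was called higher at bean 2 mm (0.84 ± 0.17 SE on the log2 scale, limma adjusted p = 0.00412), lower at bean 5 mm (-0.69, adjusted p = 0.0264) and at least 2.05-fold lower in fully grown seeds (fitted -1.58, adjusted p = 9.58e-05). BZIP50 had the same 3 calls.

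BZIP71 read 158 and 158, 149 and 187, 141 and 122, and 56.5 and 71.9. No step was called over the first 3 stages, and it was 1.84-fold lower in fully grown seeds than at bean 5 mm (log2 -0.88 ± 0.16 SE, limma adjusted p = 0.00158). A second probe set was also called lower in that step, by 1.08. The embryo marker sum rose steeply in the step in which these transcripts fell, and its part in their fall was not tested.

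Several probe sets for a member did not always change alike. Of 22 members with more than 1 tested probe set, all sets had the same sign in 16 for the first step, 12 for the second and 14 for the last. The median spread between a member's sets was 0.42 on the log2 scale. BZIP114 alone had sets called in opposite directions. Its brightest set read 269 and 271, 518 and 510, 358 and 324, and 222 and 234, a fall of 0.55 in fully grown seeds (± 0.11 SE, limma adjusted p = 0.00283). A second set was called lower as well, by 0.79 (adjusted p = 0.0204). A dim set, the third, read 10.2 and 10.0, 24.6 and 20.2, 15.0 and 16.9, and 30.9 and 30.3, and was called 0.55 higher (adjusted p = 0.0143), a change of -0.14 unscaled and -0.61 control-scaled. The higher bean 2 mm signal was common to the brightest and the dim set. Identifiers also share their main number between BZIP108 and BZIP109 and between BZIP61 and BZIP62.

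Of other genes of the bZIP class, symbols gave GBF2, a G-box binding factor, and STF2, a relative of HY5. GBF2 read 40.8 and 40.5, 27.6 and 35.2, 18.9 and 16.5, and 47.1 and 55.4, and was called higher in fully grown seeds than at bean 5 mm (0.99, limma adjusted p = 0.000834), a change of 0.14 without a call unscaled (adjusted p = 0.528) and of -0.42 control-scaled. STF2 read 13.9 and 12.7, 57.1 and 42.6, 22.6 and 16.4, and 24.4 and 21.4, highest at bean 2 mm like BZIP36. Its log2 change was 1.16 at bean 2 mm (adjusted p = 0.000771) and -0.89 at bean 5 mm against bean 2 mm (adjusted p = 0.0111).

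Of 8 measured maturation and abscisic acid genes, 4 were called higher and 3 lower at bean 2 mm, 4 and 2 in the second step, and 2 and 1 in the last. MFT, a relative of the flowering regulators that acts in seed germination in Arabidopsis, had log2 changes of 4.07, 1.93 and 2.29, all called higher (limma adjusted p = 6.33e-06, 0.00255 and 0.000129), the last at -0.03 control-scaled. LEC1-A, a regulator of embryo maturation, had 3.55, 1.96 and -1.78 (adjusted p = 1.94e-06, 0.000519 and 7.08e-05). SPK-1, also on this list, had -2.10, -1.28 and 1.59 with equal medians (adjusted p = 1.81e-05, 0.00191 and 6.67e-05), and its values under other scalings are not given here. ZEP, zeaxanthin epoxidase of abscisic acid synthesis, had -1.97 (adjusted p = 1.2e-05), 0.61 (adjusted p = 0.0223, but -0.18 unscaled and not called control-scaled, at 0.51 with an adjusted p of 0.0546) and 0.15 without a call.

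Set beside other transcription factor families found by symbol, of 47 WRKY genes 7 were called higher and 25 lower at bean 2 mm, 1 and 10 in the second step, and 10 and 8 in the last. Of 56 MYB genes the counts were 15 and 14, 5 and 4, and 17 and 21. The bZIP counts of 26 and 4, 4 and 16, and 22 and 10 out of 54 are given for comparison only, and differences between the families were not tested.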

How the data were processed

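Total RNA was extracted with a plant column kit and labelled with biotin, per the labels' protocols. The authors deposited signal intensities on a linear scale, with a value for every probe set on every array. MAS5, the Affymetrix summarisation program, is named for 4 samples (bean 5 mm and fully grown) per the submitters' processing notes. Neither the program of the other 4 nor any scaling target or build is given in the sources used here. Array medians of the deposited intensities lay between 24.1 and 138. Soybean probe sets entered the tests if they exceeded the 95th percentile of the 15864 Phytophthora sojae and 7530 Heterodera glycines probe sets on 2 or more arrays, and 33625 of 37641 did. Arrays were multiplied to a common median over those sets. The 4 stage means of log2(scaled + 16) were fitted by limma 3.58.1 under R 4.3.3 (lmFit and eBayes, trended prior), with 3 contrasts and an F-test, two-sided, Benjamini-Hochberg adjusted over 33625 probe sets, threshold 0.05. The fit was tested on simulated data. Alternatives were other scalings, pseudocounts of 1 and 64, no filter, the mean over a gene's probe sets, fewer probe sets, only the 4 arrays of a step, a replicate block, a 2-fold minimum and leaving out each array. A stage not above background on either array gives an "at least" fold against that percentile, which was 17.5 and 20.4 in fully grown seeds and 6.15 to 7.31 elsewhere. The number of arrays limits the precision. Names were updated through RefSeq (Glycine_max_v4.0), and no coordinates or sequences are given. Described by array are, for each step, the 5 largest rises and falls among called members without overlap, the 3 brightest members of each stage, members with opposite calls, and those singled out in the text. The members and lists were chosen with earlier results of these data known.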

Additional observations from a re-analysis of the deposited data

Results flagged for a closer look

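A further 6 probe sets were listed for several genes with a bZIP symbol among them, so they entered none of the counts, and 4 of them were above background on all 8 arrays. The set for BZIP124 and BZIP126 had a mean scaled signal of 1375. It read 605 and 521, 1336 and 1317, 1512 and 1449, and 2484 and 1779 at the 4 stages in order. It was higher at bean 2 mm than at pod elongation (1.22 on the log2 scale, limma adjusted p = 0.000378), as both genes' own sets were. At bean 5 mm against bean 2 mm it had 0.16 without a call (adjusted p = 0.535), where BZIP124's own set was called lower (-0.63). With equal medians it was highest in fully grown seeds, and BZIP124's own set at bean 2 mm. The set for BZIP36 and STF2 had a mean of 174 and its highest stage mean at bean 2 mm, like the own sets of both genes. The set for BZIP76 and SOYSTGA, a TGA-type bZIP gene by its symbol, had a mean of 32.2. It was 1.52 higher in fully grown seeds than at bean 5 mm (limma adjusted p = 9.23e-05), a change of -0.05 without a call control-scaled. The set for SBZ1, BZIP88 and BZIP89 had a mean of 59.1 and no call. Of the other pair, the set for SBZ1 and BZIP89 was above background on 7 arrays and had no call. The set for BZIP73A and BZIP73B was above background on 4 arrays, and it was lower at bean 2 mm than at pod elongation (-0.80, limma adjusted p = 0.00306) and higher in fully grown seeds than at bean 5 mm (0.69, adjusted p = 0.00531), the second at 0.15 unscaled and -0.14 control-scaled without a call. Groups of 2 arrays were too small to look for outlying arrays.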

How the results depend on the processing

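With 2 arrays a stage, signal over background limits dim members, most of all in fully grown seeds. For no value that changed was the cause tested. Of 502 values of 28 named changes under the alternatives, 463 kept direction and call, 30 kept direction and lost the call, and 9 turned. Unscaled, 40 members were higher and 1 lower in the first step, 1 and 44 in the second, and 3 and 31 in the last. Over all tested probe sets the unscaled calls were 20475 higher and 3945 lower, 734 and 23746, and 1770 and 19876, in step order. BZIP53B had 0.060 unscaled in the first and -0.40 in the second step, BZIP70 -0.20 in the second, and BZIP68 -0.023 and BZIP77 -0.053 in the last. Control-scaled, 7 members were lower in the first step (8387 of all tested probe sets), and 1 higher and 49 lower in the last (615 and 28387). In that last step BZIP85 then had -0.13, BZIP126 -0.93, BZIP68 -1.06 and BZIP77 -1.01. Requiring 2-fold left 9 higher and 2 lower, 1 and 1, and 9 and 3. Without probe sets that can match several transcripts 2 of 52 members were higher in the second step, and with only the 4 arrays of the step 7 were lower in the first. Leaving out single arrays gave 18 to 27 higher and 3 to 7 lower in the first step, 1 to 4 higher and 3 to 24 lower in the second, 18 to 25 higher and 9 to 13 lower in the last, and 37 to 49 by the F-test. With the replicate number as a block the counts were 26 and 4, 4 and 15, and 22 and 10, and no other count moved by over 1.5 times. Arrays with the same number deviated from their stage means with correlations of -0.05 to 0.10, and no pairing was assumed.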
